A study of Mus musculus with 11 samples.

Results

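Ifi27, Ifi27l2a and Ifi27l2b form a family of small interferon-related genes that lie side by side on mouse chromosome 12. The members were found by gene symbol, and 3 of the 31936 genes in the deposited table matched. The family was selected on the fall of Ifi27 in the same comparison in which listed interferon genes rose, so every difference between mimic and control for a member is given as a description, with no test. Expression was measured by RNA sequencing in thioglycollate-elicited peritoneal macrophages of female Mus musculus, inflammatory cells that enter the abdominal cavity after an irritant is injected. The 5 control libraries (replicates 1, 2, 3, 4 and 6) came from cells given a negative control, and the 6 mimic libraries (replicates 1 to 6) from cells given a microRNA-150 mimic, a synthetic stand-in for this microRNA. The labels give no strain, age, dose or time, and nothing about separate animals or cultures, so the spread between libraries may be technical. The series as a whole concerns macrophage microRNA-150 in the vessel growth of age-related macular degeneration.

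Proteins of this family, also called ISG12, are short, hydrophobic and share a common motif. They have been placed at mitochondria and at the nuclear envelope. Type I interferon binds its receptor, activates STAT2 and IRF9 among other factors, and so switches on a large set of antiviral genes, and human IFI27 is among the genes most often used to read this response in blood. In mice, Ifi27l2a is the member best known as interferon-inducible.

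The label "opposite to other interferon genes" fitted only 1 of the 3 members. Ifi27 was 2.06-fold lower with the mimic. Ifi27l2a was 2.17-fold higher, as the interferon genes were. Ifi27l2b had between 0 and 4 reads in every library and gave no measurable difference. Because these are bulk libraries, fewer cells that express a gene and less of its RNA per cell cannot be told apart.

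In the GENCODE M21 annotation of GRCm38, Ifi27 (ENSMUSG00000064215) lies on the plus strand of chromosome 12 at 103434211 to 103440239, with 9 annotated transcripts of which the longest is 977 nt. Ifi27l2a (ENSMUSG00000079017) lies on the minus strand at 103442167 to 103443680, has 1 annotated transcript of 463 nt, and its end faces the end of Ifi27 across 1927 bases. Ifi27l2b (ENSMUSG00000021208) follows on the minus strand at 103450898 to 103457223, with 1 transcript of 1093 nt. Which build and annotation the authors counted on is not stated in these sources. The RefSeq table of GRCm38.p6 lists Ifi27 as an older name of Ifi27l2a, so the members are followed here by their identifiers. It also draws Ifi27l2a longer, from 103433873 to 103443680, a span that contains all of Ifi27. Nor is the strand setting of the counting stated, and without strand reads from the overlap of such a long form with Ifi27 could not be told apart.

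Whether reads of members could be confused depends on how alike their RNAs are, so the most alike ungapped stretch of 60 coding bases in the alignment of Ifi27 and Ifi27l2a is shown with its best match in Ifi27l2b. The stretches run from coding base 438 to 497 in Ifi27 and from 72 to 131 in both others, read 5′ to 3′ from the GENCODE transcripts. Capitals mark the positions at which the 3 members are not all the same. In this stretch 46 of the 60 bases are identical in all 3.
Ifi27: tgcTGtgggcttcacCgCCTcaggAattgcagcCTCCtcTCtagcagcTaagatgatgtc
Ifi27l2a: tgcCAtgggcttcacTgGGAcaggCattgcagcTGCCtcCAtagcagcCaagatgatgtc
Ifi27l2b: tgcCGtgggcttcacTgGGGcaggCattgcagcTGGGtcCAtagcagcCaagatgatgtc

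Over the aligned coding bases, Ifi27 and Ifi27l2a were 69.4% identical, Ifi27 and Ifi27l2b 63.7%, and Ifi27l2a and Ifi27l2b 85.7%. The longest run of bases that Ifi27 shared with either relative was 11 nt, and it shared no 31-base word with any other annotated gene on either strand. Ifi27l2a and Ifi27l2b shared a run of 51 nt and 26 words of 31 bases, so their reads could be confused with each other. With at most 4 reads counted on Ifi27l2b in a library, the split between these genes bears little on the level of Ifi27l2a as counted.

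Between 18538509 and 25473814 reads per library were assigned to genes. Levels are given in CPM, a gene's reads scaled to a common library size, or as their log2. Mimic replicates 3, 4 and 6 stood apart in earlier results of these data, so the values that rest on them are also given without them. All 8 macrophage markers listed were measured, and their summed level was 17777 to 20592 CPM in controls and 15933 to 20299 CPM with the mimic. Of these 8, 2 were called higher and 2 lower, against 15.4% and 14.6% of all genes tested. Fcgr1 (1.32 ± 0.078, SE; limma adjusted p = 4.05e-09) and Adgre1 (0.18 ± 0.044, 0.0079) were higher. Lyz2 (-0.23 ± 0.071, 0.0251) and Cd14 (-0.26 ± 0.072, 0.0153) were lower. Markers of T and NK cells summed to 0.60 to 0.90 CPM in controls and 0.49 to 0.90 CPM with the mimic, with 0 of 8 passing the filter on low values. B cell markers summed to 3.06 to 4.94 and 2.30 to 3.81 CPM, dendritic cell markers to 4.2 to 5.75 and 3.61 to 5.00 CPM, and eosinophil and mast cell markers to 34.2 to 36.4 and 28.0 to 30.1 CPM, each in controls and then with the mimic. Of 2 B cell markers tested, Ighm was called lower (-0.75 ± 0.24, SE; limma adjusted p = 0.0302). Of 3 dendritic cell markers tested, Cd209a was (-1.45 ± 0.44, 0.0218), and 0 on either list were called higher. Ighm and Cd209a had 218 and 67 reads over the controls and 172 and 37 with the mimic. Neutrophil markers summed to 129 to 147 and 119 to 139 CPM, although the defining genes Ly6g and Retnlg had at most 3 reads over a whole group and S100a9 had 2 reads over the controls and 0 with the mimic. The other 3 on that list were well measured: S100a8 (-0.56 ± 0.14, SE; limma adjusted p = 0.00789) and Mmp9 (-0.63 ± 0.16, 0.0088) fell, and Csf3r measured -0.025 ± 0.044 (0.687). Markers of mesothelial, fibroblast and endothelial cells summed to 23.3 to 32.0 and 16.9 to 33.5 CPM. Of the 8 eosinophil and mast cell markers, only Siglecf passed the filter, with a mean log2 CPM of 5.11 in controls and 4.80 with the mimic. It was lower with the mimic (-0.31 ± 0.042, SE; limma adjusted p = 4.94e-05). The part of these small lists in the results was not tested.

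Ifi27, which shares its name with the human interferon read-out, was evenly expressed among controls and lower in every mimic library. In log2 CPM it stood at 6.41, 6.37, 6.40, 6.32 and 6.35 in control replicates 1, 2, 3, 4 and 6. With the mimic it was 5.58, 5.27, 5.31, 5.17, 5.35 and 5.25 in replicates 1 to 6. The groups did not overlap, and mimic replicate 1 was the highest of its group. The share of all genes tested whose groups do not overlap is not given here, and 30% of them were called. The means were 6.37 ± 0.035 (SD, n = 5) and 5.32 ± 0.14 (SD, n = 6), a difference of -1.04 ± 0.059 (SE of the limma fit) on the log2 scale. In reads, Ifi27 had 1511 to 1905 in a control library and 842 to 1009 in a mimic library. The authors' deposited table gives -1.05 for Ifi27, with limits of -1.17 and -0.94. Of the 12969 genes that passed the filter, 43 had a lower fitted difference than Ifi27. This count depends on how low genes are treated and on the libraries: it was 8 with a pseudocount of 1 CPM, 14 among genes with a mean log2 CPM of 1 or more, 23 without mimic replicates 3, 4 and 6, and 700 with no filter. Among the 3197 genes at least as abundant as Ifi27 on average, 3 lay lower, the structural RNAs Rmrp (-1.47), Rn7sk (-1.42) and Snord17 (-1.10), which were named after their values were seen. The other genes at that abundance lay higher than Ifi27 in this fit. Without mimic replicates 3, 4 and 6 the difference of Ifi27 was -0.97 ± 0.053.

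Ifi27l2a, the interferon-inducible relative, went the other way and varied more. Its log2 CPM was 5.34, 5.61, 5.95, 5.35 and 5.59 in control replicates 1, 2, 3, 4 and 6. With the mimic it was 7.71, 6.68, 6.35, 6.33, 6.79 and 6.23 in replicates 1 to 6. All 6 mimic libraries lay above all 5 controls, with replicate 1 far above the other mimic libraries. As for Ifi27, the share of all genes so separated is not given here. The means were 5.57 ± 0.25 (SD, n = 5) and 6.68 ± 0.55 (SD, n = 6), a difference of 1.12 ± 0.26 (SE of the limma fit), and 133 tested genes had a higher one. Without mimic replicate 1 the difference was 0.91 ± 0.14, and without mimic replicates 3, 4 and 6 it was 1.496 ± 0.28. The authors' deposited table gives 1.09 for Ifi27l2a, with limits of 0.64 and 1.53.

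Ifi27l2b was close to silent in these macrophages and did not pass the filter. It had 0, 0, 0, 3 and 4 reads in control replicates 1, 2, 3, 4 and 6, and 2, 2, 1, 2, 4 and 1 in mimic replicates 1 to 6. The 3 control libraries at 0 allow up to 0.146 CPM, the limit that a count of 0 sets. Over the 102169030 control reads its 7 reads give 0.0685 CPM (95% exact Poisson interval 0.0275 to 0.141), and over the 140582780 mimic reads its 12 give 0.0854 CPM (0.0441 to 0.149). These intervals cover counting error only, and they overlap, so no difference was detectable at this depth.

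**Figure D1:**
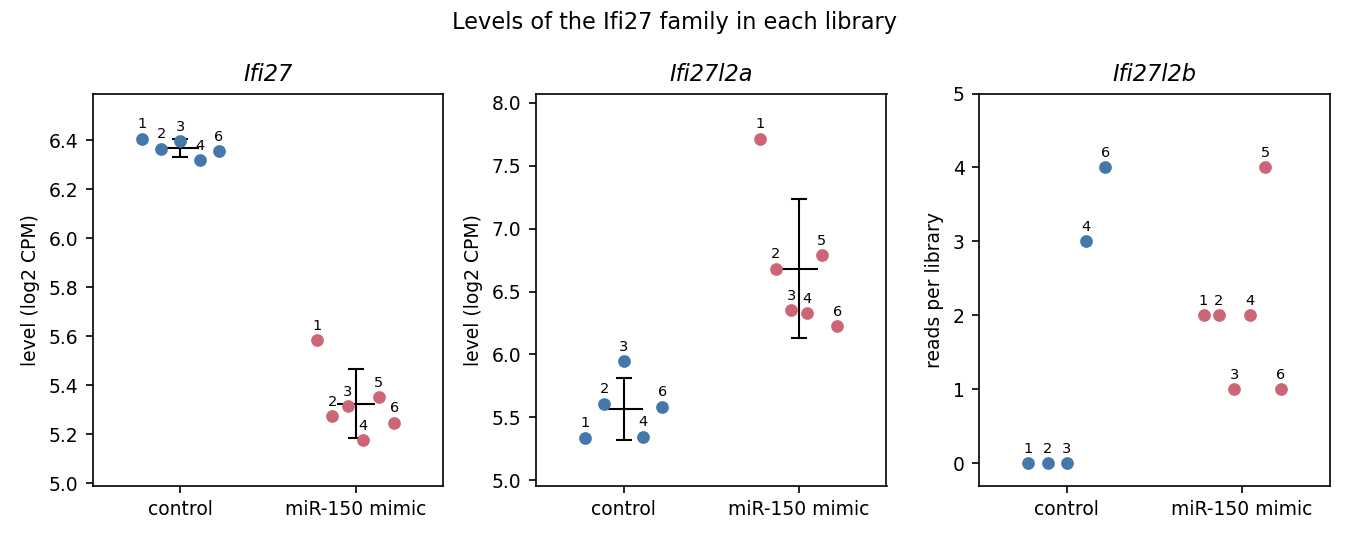
Level of each family member in every library, with control libraries in blue and mimic libraries in red and the replicate number beside each point. Ifi27 and Ifi27l2a are in log2 CPM with the mean and SD of the group in black, and Ifi27l2b is in reads per library. The mimic libraries lie between 5.17 and 5.58 for Ifi27, below all controls, and between 6.23 and 7.71 for Ifi27l2a, above all controls.

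The opposite moves changed which member gave most of the family's reads. A ratio of 2 genes within a library does not depend on how libraries are scaled to each other. For each read of Ifi27 there were 0.48 to 0.73 reads of Ifi27l2a in the control libraries (median 0.59) and 1.97 to 4.38 in the mimic libraries (median 2.44). Ifi27 thus took 57.8% to 67.7% of the reads of both genes in controls and 18.6% to 33.7% with the mimic. These ranges did not overlap, which follows from the separation of both genes.

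Genes of unequal length can be compared only per length, here in CPM per kb of the longest annotated transcript. Ifi27 stood at 84.5 ± 2.07 CPM per kb in controls (SD, n = 5; range 81.6 to 86.8) and Ifi27l2a at 104 ± 18.6 (range 87.4 to 133). By this measure the order of levels in controls was Ifi27l2a, Ifi27 and, far below, Ifi27l2b at 0.0202 to 0.218. Ifi27 had more reads than Ifi27l2a in every control, so the order of these genes rests on the length used. Which of the 9 annotated Ifi27 transcripts was expressed was not measured. Ifi27 minus Ifi27l2a was -0.63 to -0.0094 log2 units within a control library, the same direction in all 5. A two-sided exact sign-flip permutation test gave p = 0.0625, the smallest that 5 libraries allow. Adjusted over the 6 comparisons of levels computed in both groups, it was 0.0625. The controls were part of the comparison that chose Ifi27, so nothing is read from this test. With the mimic, Ifi27 stood at 41.2 ± 4.19 CPM per kb (SD, n = 6; range 37.0 to 49.0), Ifi27l2a at 238 ± 110 (range 162 to 454) and Ifi27l2b at 0.0535 to 0.166. The mimic libraries were the other part of that comparison, so their order of levels, the same as in controls, is given without a test.

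The interferon response around the family was read from a list of 49 interferon effectors, of which 48 had a row and 47 passed the filter. All 47 were higher and 0 lower with the mimic at a limma adjusted p below 0.05, and their median difference was 1.57 on the log2 scale. Over all 12969 genes tested, 15.4% were called higher and 14.6% lower, 30% in all, with a median difference of 0.00071. Because the rise of such genes was part of how Ifi27 came to be selected, nothing is read from this contrast of directions. The largest differences were those of Ifi44 (3.83 ± 0.14, SE), the antiviral genes Ifit2 (3.77 ± 0.16) and Ifit3 (3.61 ± 0.12), the chemokine Cxcl10 (3.17 ± 0.54) and the antiviral GTPase Mx1 (2.81 ± 0.13). The smallest were those of the ubiquitin ligase Trim25 (0.43 ± 0.049), the nucleotide hydrolase Samhd1 (0.52 ± 0.040), the torsin-like Tor3a (0.64 ± 0.056), the RNA-editing enzyme Adar (0.70 ± 0.046) and Oas1c (0.83 ± 0.081). Ifi27l2a, at 1.12, lay within this range, between Oas1b (1.08) and Parp9 (1.17). Ifi27, at -1.04, lay below Trim25, the lowest effector.

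**Figure D2:**
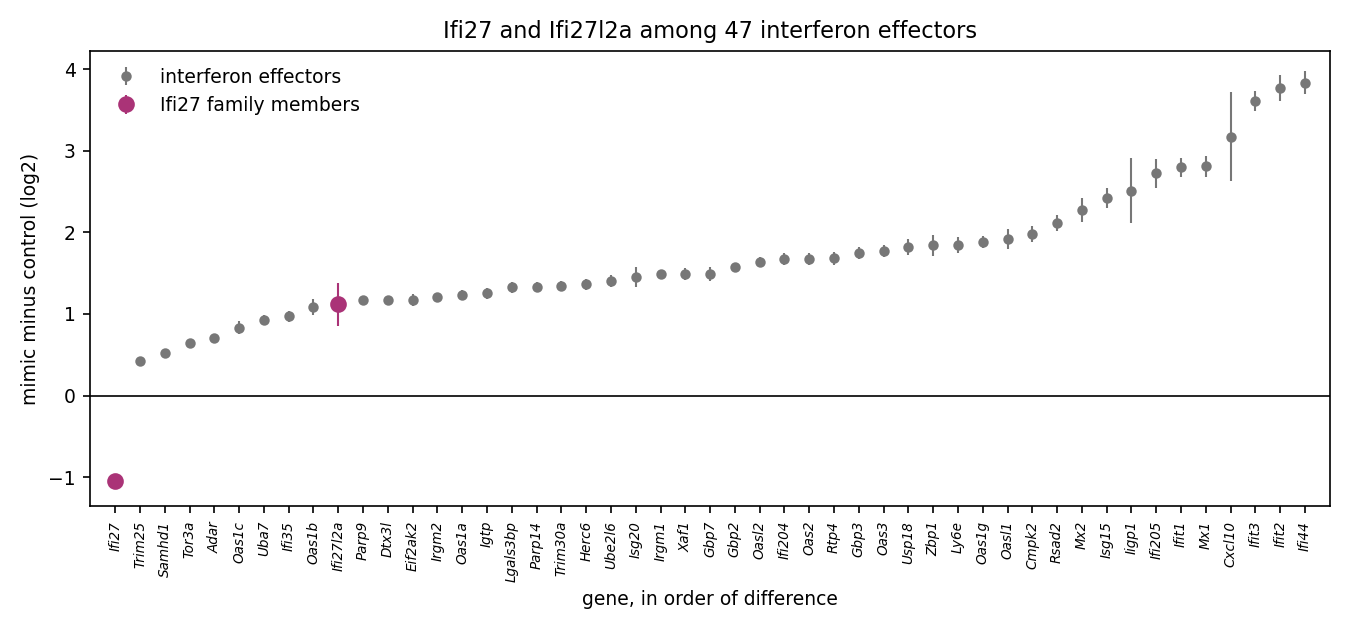
Difference between mimic and control on the log2 scale for the 47 interferon effectors tested (grey) and the 2 tested members of the Ifi27 family (purple), in order of size, with bars for the standard error. Ifi27l2a lies within the range of the effectors, 0.43 to 3.83, and Ifi27 lies at -1.04.

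By library, and again as a description only, the median effector stood 1.47 to 1.59 log2 units above its control mean in the 6 mimic libraries. Ifi27 minus its own control mean was -1.19 to -0.79 in the same libraries. Ifi27l2a stood 0.66 to 2.15 units above its control mean. Over the 6 mimic libraries, the median effector had a Pearson r of 0.18 with Ifi27l2a (exact permutation p = 0.667; Spearman rho 0.26, exact p = 0.658). Its r with Ifi27 was -0.055 (exact permutation p = 0.878; Spearman rho 0.086, exact p = 0.919). Neither passed, and without the 2 libraries farthest from the median effector level r was -0.37 and -0.19 over 4 libraries.

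Receptors and signal transducers of interferon were mixed, with 9 of 19 called higher and 2 lower, against 15.4% and 14.6% of all genes tested. Their median difference was 0.084. With the transcript length correction 7 were higher and 2 lower, and the median was 0.041. Transcription factors that act downstream of the type I receptor were higher: Stat2 by 1.56 ± 0.090 (SE), Irf7 by 2.51 ± 0.12 and Irf9 by 0.71 ± 0.052, with limma adjusted p of at most 2.29e-08. Irf1 rose by 0.36 ± 0.074 (limma adjusted p = 0.00236). The 2 lower genes were Socs3, a feedback inhibitor of cytokine signalling (-0.52 ± 0.063, limma adjusted p = 1.46e-05), and Ifngr1, a chain of the interferon-gamma receptor (-0.19 ± 0.047, limma adjusted p = 0.00693), the latter named after its value was seen.

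Other small membrane proteins of the interferon response were listed beside the family, and their sizes were not compared with those of the members. Of 10 listed, 8 passed the filter. Of these, 4 were called higher and 1 lower, against 15.4% and 14.6% of all genes tested, with a median difference of 0.44. Without mimic replicates 3, 4 and 6 the median was 0.67, and 5 passed as higher and 1 as lower. Ly6e (1.85 ± 0.10, SE), which is also on the effector list, the virus-tethering Bst2 (1.61 ± 0.089), the entry inhibitor Ifitm3 (1.45 ± 0.15) and Shisa5 (0.43 ± 0.062) rose, with limma adjusted p of at most 1.00e-04. Ifitm10 fell by 0.64 ± 0.20 (limma adjusted p = 0.027). It no longer passed when 1 of 3 libraries was left out: the adjusted p was 0.0748 without control replicate 2, 0.0678 without control replicate 3 and 0.0512 without mimic replicate 2. Ifitm2, the close relative of Ifitm3, had a difference of -0.53 ± 0.20 that missed the threshold (limma adjusted p = 0.0701), but it passed as lower under 5 alternatives, without mimic replicate 1 among them (-0.70, adjusted p = 3.87e-05). In log2 CPM, mimic replicate 1 (6.84) lay above all controls (6.45 to 6.61). Mimic replicates 3, 4 and 6 were the lowest (5.76, 5.58 and 5.66), and replicates 2 and 5 stood at 5.92 and 6.23. Ifitm6 measured 0.45 ± 0.20 (0.0913) and Tmem140 0.030 ± 0.053 (0.686), and neither passed; Ifitm6 passed as higher without mimic replicate 6 (0.60, adjusted p = 0.0172), without mimic replicates 3, 4 and 6 (0.77, adjusted p = 0.00222) and with the correction for transcript length (0.65, adjusted p = 0.0106). Ifitm1 and Ifitm7 were too low to test, with 21 and 4 reads over the controls and 39 and 5 over the mimic libraries. Ifitm2 and Ifitm3 belong to a family of similar genes, and how much sequence they share was not measured.

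Of 5 proteins reported to act with ISG12, 4 passed the filter and 1 was higher, a share near the 30% called over all genes: Xpo1, the nuclear export receptor, rose by 0.23 ± 0.060 (SE; limma adjusted p = 0.00973). Its log2 CPM was highest in mimic replicates 3, 4 and 6 (7.40, 7.56 and 7.47). Mimic replicate 1 (7.15) lay within the controls (7.10 to 7.19). Without mimic replicates 3, 4 and 6, 1 of the 4 partners still passed as higher. The nuclear receptors Nr4a1 (0.15 ± 0.11, limma adjusted p = 0.32) and Nr4a2 (-0.29 ± 0.16, 0.185) and the ubiquitin ligase subunit Skp2 (0.082 ± 0.060, 0.309) did not pass, and Nr4a3 was too low to test. ISG12 proteins have also been tied to cell death at mitochondria, and of 14 genes of the BCL2 family and cytochrome c release, 13 passed the filter, with 2 higher and 1 lower, again near that background of 30%. These were Apaf1 (0.14 ± 0.042, limma adjusted p = 0.0176), Mcl1 (0.10 ± 0.037, 0.0433) and Bad (-0.30 ± 0.086, 0.0186). None of these 3 calls held in every alternative: without mimic replicates 3, 4 and 6 together the adjusted p was 0.152 for Apaf1 and 0.149 for Bad, and the call of Mcl1 was lost without any single control library or any 1 of mimic replicates 1, 2, 3 and 5 (adjusted p of 0.0574 to 0.0872).

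Among the nearest tested genes on each side of the cluster, none was as far from 0 as either member. Several lie far from it: Btbd7 555740 and Ubr7 656504 bases before, and the 5 on the other side 1230519 to 1573852 bases after. Of the 5 nearest tested genes on each side, 2 were called higher and 1 lower, a share like the 30% called over all genes. Ddx24, an RNA helicase gene that ends 8381 bases before Ifi27 and is its nearest tested neighbour, rose by 0.45 ± 0.051 (SE; limma adjusted p = 7.66e-06). Otub2 (-0.0041 ± 0.091), 9330161L09Rik (0.37 ± 0.22) and Ubr7 (0.094 ± 0.047) on the same side did not pass (limma adjusted p of at least 0.139). On the far side Dicer1, the enzyme that cuts microRNA precursors, measured 0.085 ± 0.056 (limma adjusted p = 0.261), Clmn -0.31 ± 0.16, Gm28875 0.045 ± 0.13 and Syne3 0.023 ± 0.060, and none passed. Without mimic replicate 1 Dicer1 passed as higher (0.13, adjusted p = 0.0304). Its log2 CPM was highest in mimic replicates 3, 4 and 6 (6.26, 6.36 and 6.25). In mimic replicates 1, 2 and 5 it was 5.98, 6.19 and 6.17, against 6.04 to 6.17 in controls. Btbd7 (0.20 ± 0.066, limma adjusted p = 0.0336) and the small Cajal body RNA Scarna13 (-0.79 ± 0.24, 0.0318) passed, but without mimic replicates 3, 4 and 6 they measured 0.071 (adjusted p = 0.396) and -0.39 (0.326). Both calls were also lost without any 1 of mimic replicates 3, 4 and 6 or control replicates 2, 3 and 6, and that of Btbd7 without control replicate 1 (adjusted p of 0.0525 to 0.0916).

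**Figure D3:**
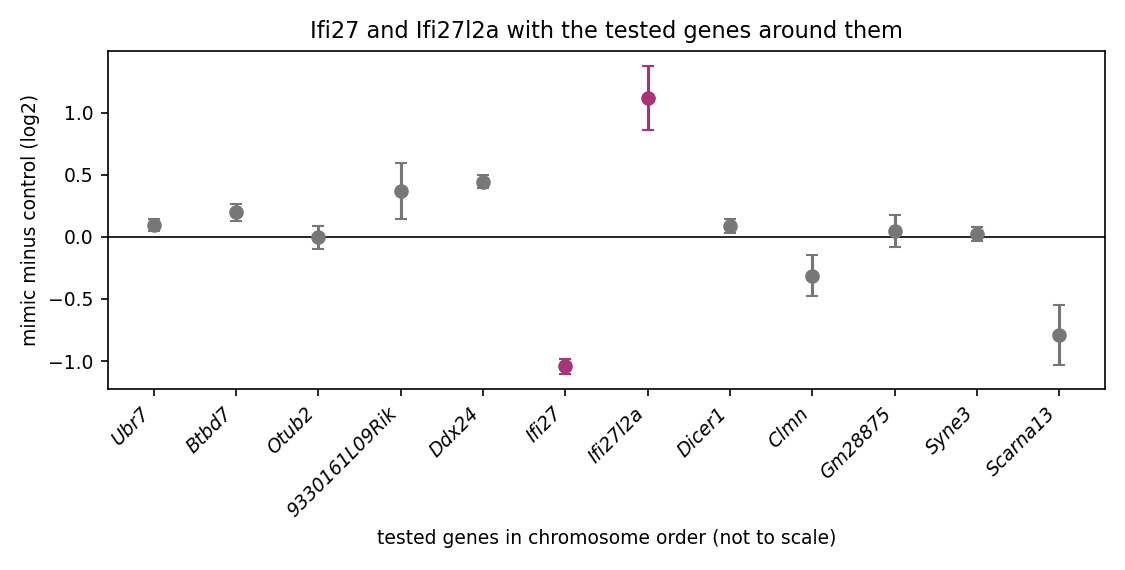
Difference between mimic and control on the log2 scale for Ifi27 and Ifi27l2a (purple) and the 5 nearest tested genes on each side (grey), in the order they take on chromosome 12, with bars for the standard error; distances are not to scale. Ifi27 lies at -1.04 between Ddx24 at 0.45 and Ifi27l2a at 1.12. The 5 genes after the cluster lie 1230519 to 1573852 bases from it.

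Among the mimic libraries, Ifi27 and Ifi27l2a did not move apart but together. With each group's mean removed, their Pearson r over the 11 libraries was 0.87, given as a description. By this r Ifi27l2a stood at rank 332 of the 9926 genes ranked for likeness to Ifi27, so the movement was not particular to this pair. Over the 6 mimic libraries alone r was 0.93 (exact permutation p = 0.0208, or 0.0625 adjusted over the 3 relations computed) and Spearman's rho 0.89 (exact p = 0.0333, or 0.10 adjusted). The relation rested on few libraries: without mimic replicates 1 and 4, the farthest from the median of Ifi27, r was 0.62 over 4 libraries, and over all groups without mimic replicate 1 it was 0.50. Over the 5 control libraries r was 0.37.

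Transcript length moved with this shared variation. The 928 tested genes whose longest transcript is under 1000 nt, a class that holds both Ifi27 and Ifi27l2a, had a median difference of -0.17, against 0.0077 for the 12005 others with a known length. By library, the median short gene minus its control mean was -0.048 to 0.043 in the controls. In mimic replicates 1 to 6 it lay at 0.045, -0.21, -0.24, -0.32, -0.11 and -0.26. Mimic replicate 1, where both members were highest, was thus the only mimic library in which short genes were not lower. The differences of short genes ran from -0.96 at the 5th to 0.52 at the 95th percentile, and 36 of the 928 lay below Ifi27.

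When the trend with length was removed from each library, the groups stayed apart and the mimic libraries drew together. Ifi27 then ran from 6.24 to 6.30 in controls and from 5.34 to 5.44 with the mimic, a difference of -0.88 ± 0.036 (SE), and its SD over the mimic libraries was 0.044 in place of 0.14. Ifi27l2a ran from 5.18 to 5.76 and from 6.41 to 7.49, a difference of 1.39 ± 0.19. The r between them over the 11 libraries became 0.22. The directions of both members were therefore as measured before the correction, and the fall of Ifi27 was smaller and the rise of Ifi27l2a larger.

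**Figure D4:**
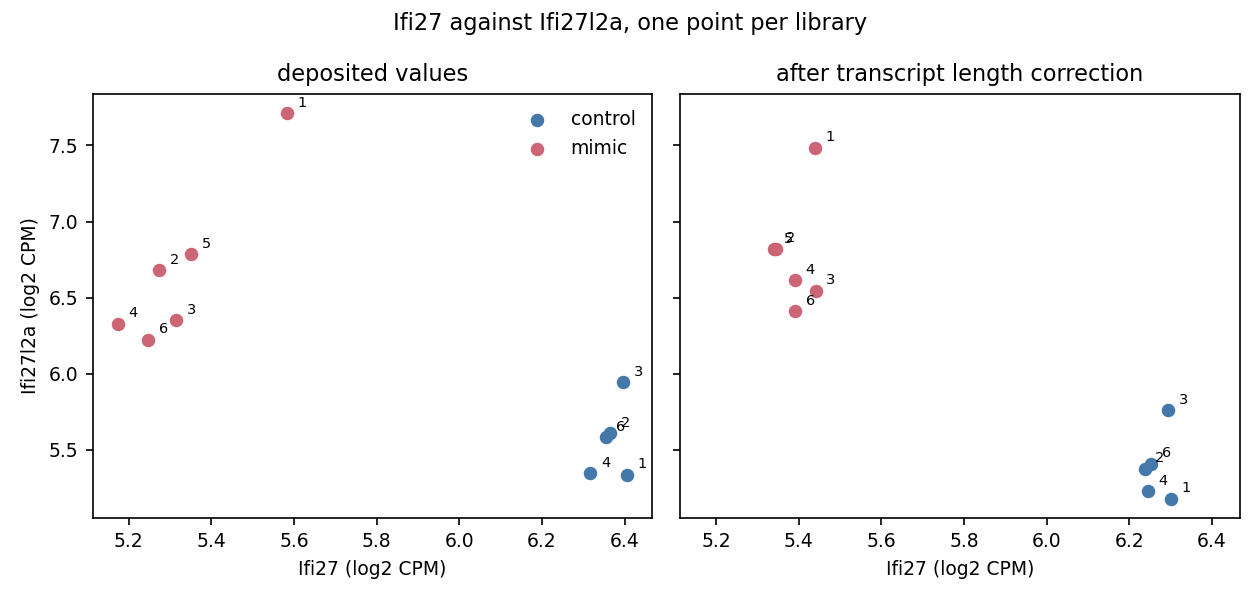
Ifi27 (x axis) against Ifi27l2a (y axis), both in log2 CPM, with 1 point per library and its replicate number, controls in blue and mimic in red, as deposited (left) and after the transcript length correction (right). Controls and mimic libraries stand in opposite corners in both panels, and the slope among the mimic libraries on the left (r of 0.93) is mostly gone on the right (r of 0.22).

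The 5 genes most like Ifi27 in how libraries varied within groups held no listed interferon effector. Nothing is read from this, as at most 47 of the 9926 genes ranked could be effectors. Likeness was the r of log2 CPM with group means removed, over 11 libraries. It was ranked among 9926 genes whose mean log2 CPM reached 1, with unnamed and provisionally named genes, such as Gm and Rik, left out. Of the top 5, 4 are described: Bud31, a splicing factor (r = 0.98), Trappc2l, of vesicle transport (0.98), Nop10, of small nucleolar particles (0.98), and Lsm3, which binds spliceosomal RNA (0.97). Each of these 4 was lower with the mimic, between -0.20 ± 0.070 for Bud31 and -0.88 ± 0.19 for Nop10 (SE; limma adjusted p of at most 0.041), but each had a mimic library within or above the range of its controls, which Ifi27 did not. None of the 4 calls held without mimic replicates 3, 4 and 6 (adjusted p of at least 0.137). Bud31 was also lost without any single library other than mimic replicates 1 and 5, and Lsm3 without mimic replicate 6 or control replicate 1, 3 or 6 (adjusted p of 0.0511 to 0.0955). The 100 genes most like Ifi27 had a median longest transcript of 1047 nt, against 3479 nt over all ranked genes. With the transcript length correction the difference of Bud31 was -0.021 (adjusted p = 0.732). After the length correction the r of these 4 genes with Ifi27 fell to between 0.39 and 0.76, and 0 of the 5 stayed among the top 5. The 47 interferon effectors had a median r of -0.044 with Ifi27, against 0.0037 over all tested genes, and 22 of the effectors were above 0.

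**Figure D5:**
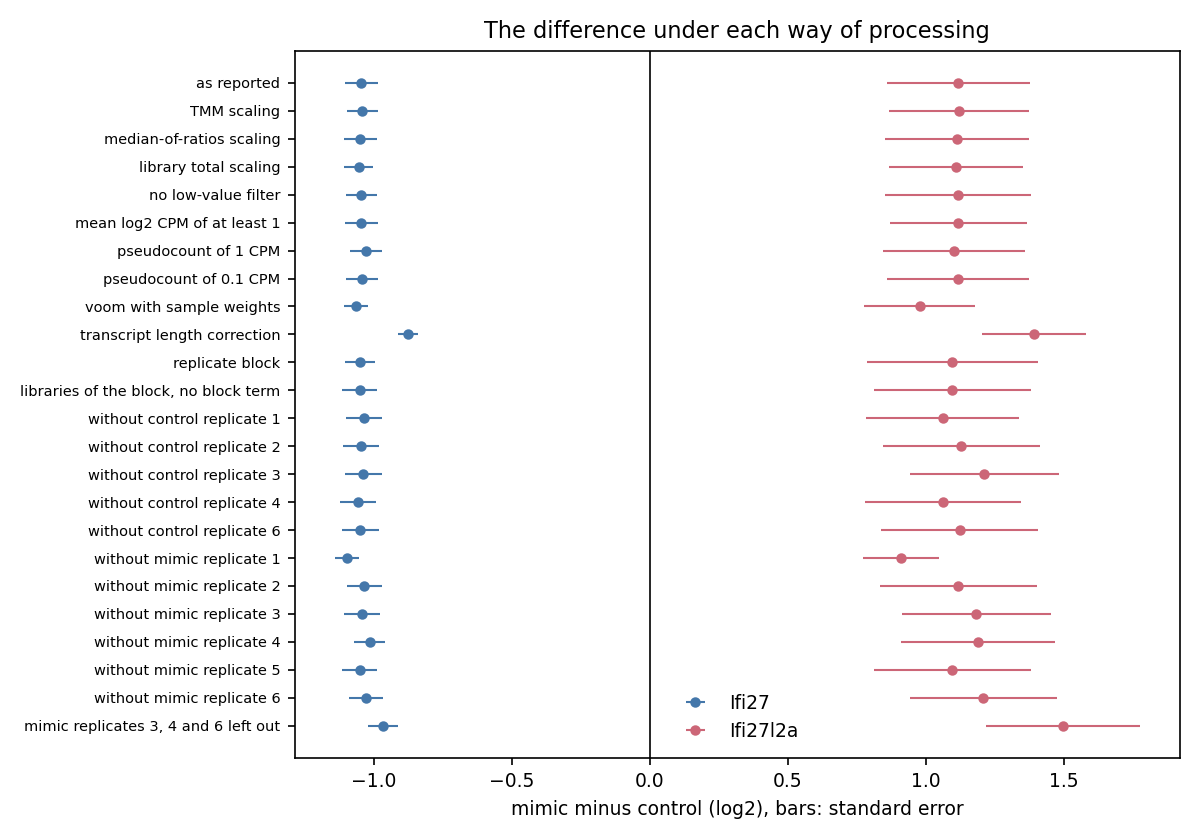
Difference between mimic and control on the log2 scale for Ifi27 (blue) and Ifi27l2a (red) as reported and under each other way of processing the values or leaving out libraries, with bars for the standard error. Ifi27 lies between -1.10 and -0.88 and Ifi27l2a between 0.91 and 1.496, on opposite sides of 0 in every row.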

How the data were processed

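The submitters' processing notes name STAR, Subread (featureCounts) and edgeR; their versions, the genome build and the strand setting were not stated. The authors deposited log2 CPM per library. From the values, each is the log2 of whole reads plus 0.5 over a scaled total, and whole reads were recovered within 0.01 for 100% of values. The authors' deposited table also gives log2 fold changes with limits and p-values, whose test is not named there. The first row per gene identifier was used.

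The deposited log2 CPM were fitted with limma 3.58.1 (R 4.3.3, statmod 1.5.0), with a group term, an intensity trend and robust moderation, for the 12969 genes that reached a log2 CPM of -1 in 5 or more libraries. A gene was called at a Benjamini-Hochberg adjusted p below 0.05 over all of them. The fit was checked on simulated data. Reads recovered from the steps entered a voom fit, other scalings and other pseudocounts. The length correction was a lowess (span 0.3) of each library's deviations on transcript length, over 12933 genes. Coding sequences were aligned with Biopython 1.88. Exact tests used all permutations (numpy 2.4.6, scipy 1.17.1, pandas 2.3.3), and figures matplotlib 3.10.9.

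The members and gene lists were chosen with earlier results of these data known. The rule for naming genes took the members, the 5 highest and 5 lowest effectors, all tested membrane proteins and ISG12 partners, up to 6 called genes of the other lists, the 5 nearest tested genes on each side, and the 5 most like Ifi27. Promoters of the members, and microRNA-150-5p sites, were not analysed here, and 2 genes the rule names are not reported here.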

Additional observations from a re-analysis of the deposited data

Results flagged for a closer look

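Among the 92 gene and group pairs checked for a library far from the others, 1 stood out, where chance sets apart about 5% of groups. Ifitm3 in control replicate 3 had a log2 CPM of 7.58, against 7.24 to 7.30 in the other controls. The same library had the highest Ifi27l2a of its group, 5.95, and the highest median effector, 0.20 above the control mean. Mimic replicate 1 was not set apart by the same rule for Ifi27l2a.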

How the results depend on the processing

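Over 23 alternatives Ifi27 stayed between -1.10 and -0.88 and Ifi27l2a between 0.91 and 1.496, each in its own direction, and the median of the interferon effectors between 1.47 and 1.62. The difference of Ifi27 moved by more than the spread between replicates only with the transcript length correction (-0.88). With the replicate number as a block, over the 5 numbers both groups hold, Ifi27 measured -1.05 and Ifi27l2a 1.10. The numbers did not pair the libraries (correlations of same-numbered libraries from -0.061 to 0.062), and 3568 genes were called with the block, against 3921 in the same 10 libraries without it. With the block Ifitm10 measured -0.67 (adjusted p = 0.0506) and Ifitm2 -0.58 (adjusted p = 0.0477). The number of genes called, 3892 as reported, was 2100 without mimic replicates 3, 4 and 6 and 1759 at an adjusted p below 0.01, and between 2908 (without mimic replicate 6) and 5621 (voom with sample weights) otherwise, with 5199 without mimic replicate 1; the cause of the first was not tested, beyond fewer samples. With library totals as the only scaling 42.9% of calls were higher, against 51.3%. Per kb of coding length Ifi27 lay 0.72 log2 units below Ifi27l2a in controls (-0.72), against -0.27 per kb of transcript. Of the 5 genes most like Ifi27, 2 remained among the top 5 in the mimic libraries alone, 0 in the controls alone and 0 after the length correction. Ifi27l2b could be fitted only without the filter, and promoter motifs and 6-base seed matches were not run. The correction for length in the likeness was chosen after seeing the data.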
